A study of Glycine max with 7 samples.

Results

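GLYMA.06G314400 is a soybean transcription factor that its own peak lists name AREB3. Its binding was described here from 39590 sites, each made of a peak of 1 ChIP library joined with every peak of the other library that it overlapped by 1 bp or more. The 2 GLYMA.06G314400 libraries listed 95471 peaks, out of 185857 in the 4 ChIP libraries of the series. Of the 95471, 40212 replicate 2 peaks and 39798 replicate 3 peaks lay in joined sites, and 15461 lay in none. The series (7 samples) also holds 2 ChIP libraries of GLYMA.04G093300, named HB22 in its lists, and 3 libraries of input chromatin, which were not analysed here. All groups came from embryos of cultivar Williams 82 at the cotyledon stage, taken from seeds of 3.5 to 4.5 mm, with no mutation or treatment given in the labels. Tissue was fixed with 1% formaldehyde and chromatin was sonicated to 100 to 500 bp. The GLYMA.06G314400 antibody (3 µg) was raised against a peptide of that protein, and the GLYMA.04G093300 antibody against a peptide of the other. The labels give whole embryos, so the lists do not separate the cell types of the embryo, and a site in few cells and a weak site in many cannot be told apart.

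In Arabidopsis, AREB3 belongs to the basic leucine zipper proteins of the AREB/ABF group. These proteins bind abscisic acid response elements, short DNA elements with an ACGT core, as dimers. Abscisic acid is the hormone that accompanies seed maturation, storage protein accumulation and desiccation tolerance in plants. In legumes the cotyledons of the embryo are the organs that store this protein and oil.

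The value called fold below is the authors' fold enrichment of a peak at its summit, the position of highest signal, within 1 library. It was used only to order peaks within their own list, as a percentile, or to describe that list. The rank of a site is the smaller of its percentiles in the 2 libraries. The genome build is not given in the sources used here, so coordinates are those of the deposited lists, and no gene or sequence was assigned to a site.

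Nearly all sites were simple. Of the 39590 sites, 38801 (98.0%) consisted of 1 peak of each replicate. In 583 sites, several replicate 2 peaks lay under 1 replicate 3 peak, and in 185 sites several replicate 3 peaks lay under 1 replicate 2 peak. These composite sites were broad, with medians of 1156 and 998 bp, against 484 bp for the simple ones. The remaining 21 sites held several peaks of both. Replicate 3, which gave the wider peaks, was also the library that more often bridged neighbours. In simple sites its peak was the wider one in 65.9% and that of replicate 2 in 33.6%, with a median difference of 31 bp.

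The libraries placed these simple sites closely. Starts and ends of the paired peaks each differed by a median of 35 bp and summits by 21 bp. The summit distance was 9 to 41 bp in the middle 50% of sites, 70 bp at the 90th percentile and 253 bp at the 99th. Across the 39590 sites, the folds of the libraries had a Spearman rho of 0.843, given as a description, since sites of one pair of libraries are no replicates. The percentile of a site differed between libraries by a median of 9.22 points. Few pairs lay near the limit of the joining rule. Only 8 of 40420 overlapping pairs shared 10 bp or less, and 15 pairs of peaks missed each other with fewer than 10 bp between them.

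Each chromosome had a site of high fold. The site of highest rank on each of the 20 chromosomes had a fold between 46.0 and 68.5 in replicate 2 and between 50.2 and 67.8 in replicate 3. On chromosome 18, the site from 3133868 to 3134693 had folds of 60.3 and 64.7 in replicates 2 and 3, and both summits fell on the same base. On chromosome 11, from 2852643 to 2853855, the folds were 54.3 and 62.0, with summits 16 bp apart. The chromosome 17 site, from 38255656 to 38256465, had folds of 54.8 and 56.4 and lay 623 bp from its nearest neighbour. All 3 stood at or above percentile 99.9 of the fold in both lists.

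The site from 6718143 to 6719115 on chromosome 14 had folds of 53.8 and 57.8 in replicates 2 and 3, and the one from 8097131 to 8098269 on chromosome 1 had 61.4 and 56.1. On chromosome 10, from 43747978 to 43749473, replicate 2 had 2 peaks under 1 replicate 3 peak, with folds of 53.2 and 57.8. The chromosome 7 site, from 4113993 to 4114950, had folds of 53.0 and 56.7. Its counterpart on chromosome 8 was far broader than these. It spanned 2644 bp from 2703096 to 2705739, with folds of 56.3 and 55.6, and its summit lay 69.7% and 69.1% of the way along the replicate 2 and replicate 3 peaks, 4 bp apart.

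Sites were dense on some chromosomes and sparse on others. The 20 chromosomes held 39383 sites, or 41.5 per Mb over 948.8 Mb, where each chromosome was taken to end with its last peak in the series. Chromosome 13 was the densest with 62.2 sites per Mb, followed by chromosomes 11 (56.7), 17 (53.4) and 8 (50.7). Chromosome 18 was the sparsest with 31.8 sites per Mb, next to chromosomes 1 (32.9) and 14 (33.0). Chromosome 13 thus had 1.96 times the density of chromosome 18.

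Both libraries gave this order. On chromosome 13 there were 71.1 peaks per Mb in replicate 2 and 78.5 in replicate 3, and on chromosome 18 there were 36.8 and 40.5. Replicate 3, the longer list, had more peaks on each chromosome, by 1.07 to 1.14 times. The SD between the libraries was 2.16 to 6.21 per Mb within a chromosome, while the SD over chromosomes was 9.49 per Mb in replicate 2 and 10.9 in replicate 3. Of the 20 chromosomes, 12 held the same place in the order of both libraries, and no chromosome moved by more than 3 places. Neighbours in the order differed by less than the SD between libraries in many cases, such as chromosomes 18, 1 and 14. That SD includes the greater length of the replicate 3 list, which all chromosomes share. Chromosomes 18, 1 and 14 stood in the same order in both libraries, at 36.8, 37.4 and 37.5 peaks per Mb in replicate 2 and 40.5, 41.2 and 42.7 in replicate 3. The remaining 207 sites (0.523%) lay on 43 scaffolds outside the chromosomes, 71 of them on scaffold_21.

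**Figure D1:**
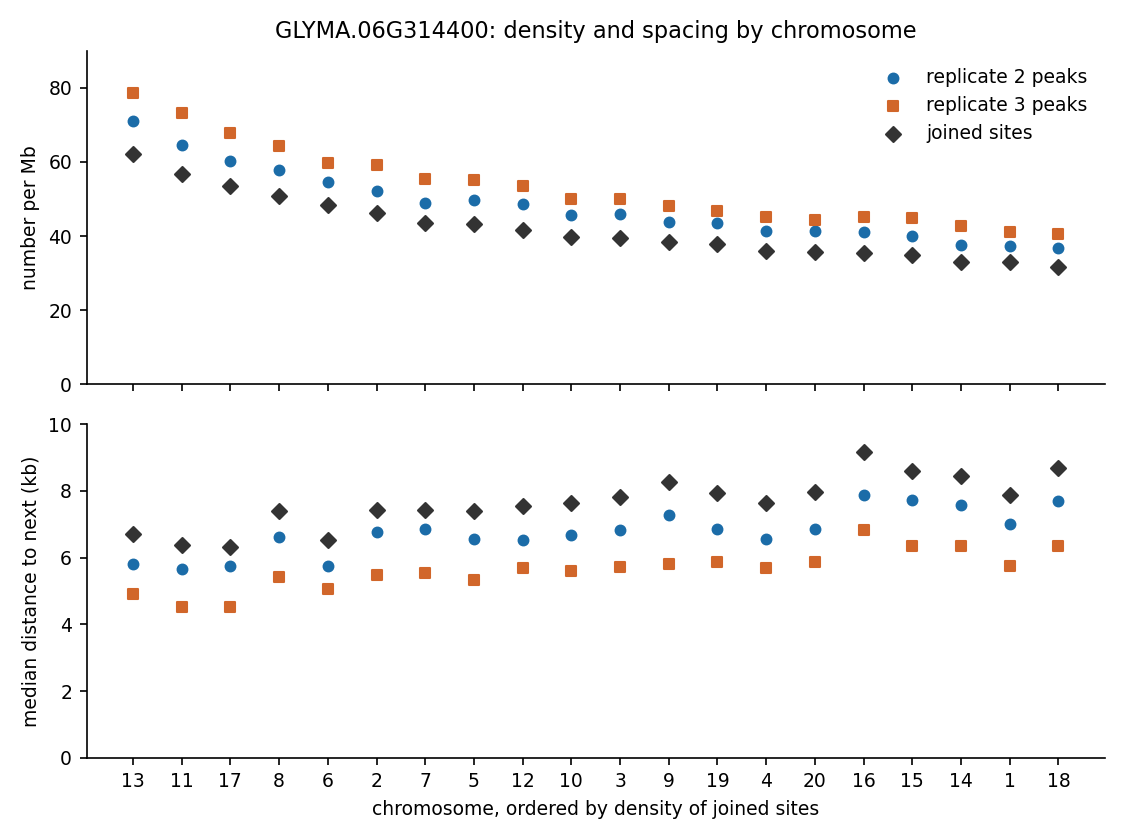
Number per Mb (upper panel) and median distance from the end of a peak or site to the start of the next (lower panel, kb) for the 20 chromosomes, ordered by density of joined sites. Circles are replicate 2, squares replicate 3 and diamonds joined sites. Density runs from 62.2 sites per Mb on chromosome 13 to 31.8 on chromosome 18 and the 2 libraries follow each other, while the order by spacing differs, with the longest median distance on chromosome 16.

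Density changed along the chromosomes far more than between them. With each chromosome cut into 10 equal parts and the 20 chromosomes pooled, the parts in order from the first held 81.3, 60.2, 33.0, 22.1, 14.2, 10.5, 14.6, 35.3, 61.6 and 82.3 sites per Mb. The range was 7.80-fold, and it was 7.46-fold in replicate 2 peaks and 7.77-fold in replicate 3 peaks. The parts in the middle were sparse and those at the ends dense in both lists. In 937 full bins of 1 Mb the median was 25 sites, with 8 at the lower and 74 at the upper quartile. The densest bin held 143 sites, on chromosome 11 from 3000001 to 4000000, where replicates 2 and 3 had 159 and 182 peaks. A bin of chromosome 6 from 3000001 to 4000000 followed with 138 sites. The densest 10% of bins held 27.1% of the sites in full bins, and 21 bins held none, of which 10 had no peak of either library. Of the 50 densest bins of each library, 37 (74% of each list) were the same.

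The median fold of sites varied far less along the chromosomes than their density did. The median fold of joined sites in the 10 parts of the chromosomes lay between 7.11 and 7.58 in replicate 2 and between 8.11 and 8.59 in replicate 3. In replicate 2 it was highest in the sparse parts 5 and 6 (7.58 and 7.57) and lowest in the dense parts 10 and 1 (7.11 and 7.12). In replicate 3 it was also highest in part 5 (8.59), but lowest in part 7 (8.11). Median width stayed between 479 and 494 bp. These ranges were 1.07-fold, 1.06-fold and 1.03-fold, against 7.80-fold for density. Likewise, the median fold per chromosome ranged from 6.89 to 7.46 in replicate 2 and from 7.96 to 8.59 in replicate 3, and the median width from 473 to 503 bp.

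Distance to the nearest site also changed less than density. Its median was 5836 bp in the sixth part, with 10.5 sites per Mb, and 2625.5 bp in the first, with 81.3 sites per Mb, a range of 2.22-fold over the 10 parts. A site in the sparse middle therefore still had, at the median, a neighbour within several kb.

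**Figure D2:**
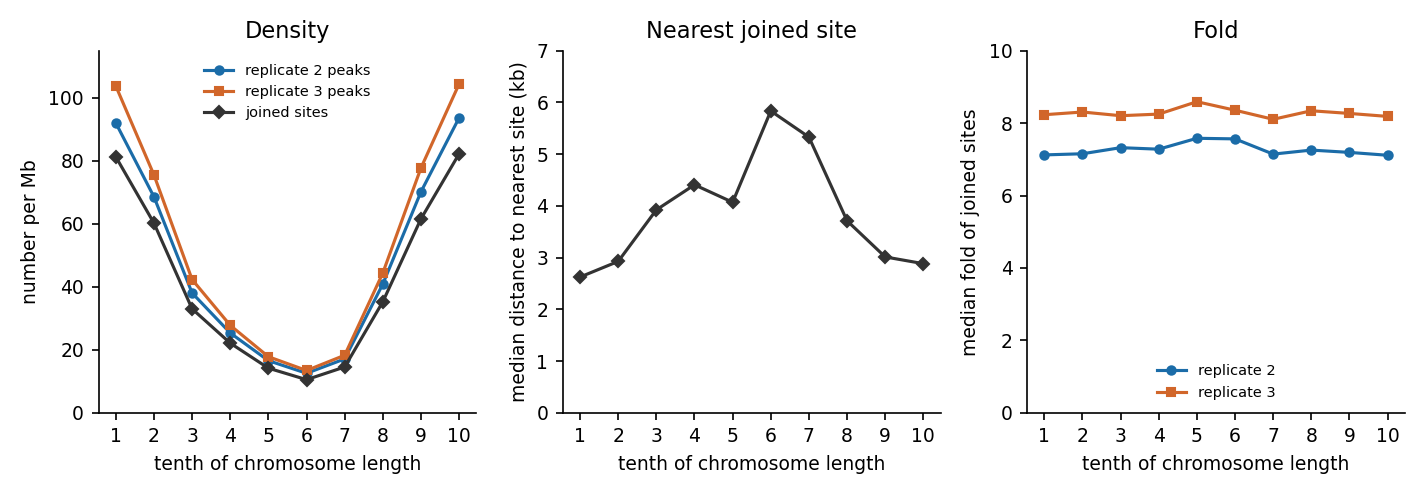
Density (number per Mb, left), median distance from a joined site to its nearest joined site (kb, middle) and median authors' fold of joined sites in each library (right), in 10 equal parts of the chromosome length with the 20 chromosomes pooled. Density falls to 10.5 sites per Mb in the sixth part, against 81.3 and 82.3 at the ends, while the median fold stays between 7.11 and 7.58 in replicate 2 and between 8.11 and 8.59 in replicate 3.

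Neighbouring sites were unevenly spaced. From the end of a site to the start of the next, the median distance was 7509 bp and the mean 23509 bp, 3.13 times the median. Of the 39363 distances, 12.7% were under 1 kb, 39.8% under 5 kb and 57.8% under 10 kb. A further 3.89% exceeded 100 kb, and these few distances made up 46.3% of the summed distance. Between the peaks of a single library the median was 6632 bp in replicate 2 and 5510 bp in replicate 3, or 6071 ± 793 bp (SD, n = 2). The median in GLYMA.04G093300 peaks was 4570 bp in replicate 1 and 6005 bp in replicate 2, so the libraries of the 2 factors overlapped in this median. Shares under 5 kb overlapped too, at 42.8% and 47.6% for GLYMA.06G314400 against 52.0% and 46.1%. Shares under 1 kb did not, at 13.9% and 16.6% against 21.0% and 19.2%. The 4 lists differ in length, from 39721 to 50665 peaks, and in minimum width. The part of both in these values was not tested.

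The shortest distances between summits were rare, but the fullest class still lay under 1 kb. Measured from summit to summit in classes of 200 bp up to 3 kb, the fullest class was 800 to 1000 bp, in joined sites and in each library. It held 2.70% of the distances between sites, 3.09% in replicate 2 and 3.53% in replicate 3. No summits of one library lay within 200 bp of each other, and 0.129% and 0.187% lay within 400 bp. The peaks themselves set a limit here. No peak was narrower than 231 bp in replicate 2 or 232 bp in replicate 3, and peaks of 1 list were always at least 52 bp apart, in each of the 4 lists of the series. The part of these limits in the shape of the distribution was not tested.

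The order of chromosomes by spacing was not that by density. Median distance between sites was shortest on chromosomes 17 (6333 bp) and 11 (6379 bp) and longest on chromosome 16 (9159 bp). Chromosome 13, the densest, had a median of 6711.5 bp, and also the longest empty stretch of all, 3.63 Mb from 5897041 to 9531001. That stretch held 6 peaks seen in replicate 2 only and 2 seen in replicate 3 only. The next longest were 2.89 Mb on chromosome 5 (15986587 to 18880885, with 2 replicate 3 peaks) and 2.81 Mb on chromosome 10 (13792050 to 16606719, with 1 replicate 3 peak). Replicate 2 had no peak in either.

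The densest windows of 100 kb held both weak and strong sites. On chromosome 4 the window from 1600001 to 1700000 held 25 sites, with 27 and 28 peaks in replicates 2 and 3. Windows on chromosome 13 (40100001 to 40200000) and chromosome 17 (5300001 to 5400000) held 24 and 23 sites. The median rank of the sites in these windows was 50.1, 47.8 and 42.3, the lowest rank was 1.52, 6.13 and 3.16, and the highest 98.3, 94.8 and 90.2.

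Strong sites were not spaced differently from weak ones to any large extent. With sites in 10 classes of rank, from lowest to highest, the median distance to the nearest site was between 2838 and 3443 bp. The value was 2912 bp in the lowest class and 2838 bp in the highest, and 3153 bp over all sites. A neighbour within 1 kb was present for 24.9% of sites in the lowest class, 26.5% in the highest and 23.4% of all. Over the same classes the median width went up from 373 to 744 bp, which shortens the distance between edges by construction.

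**Figure D3:**
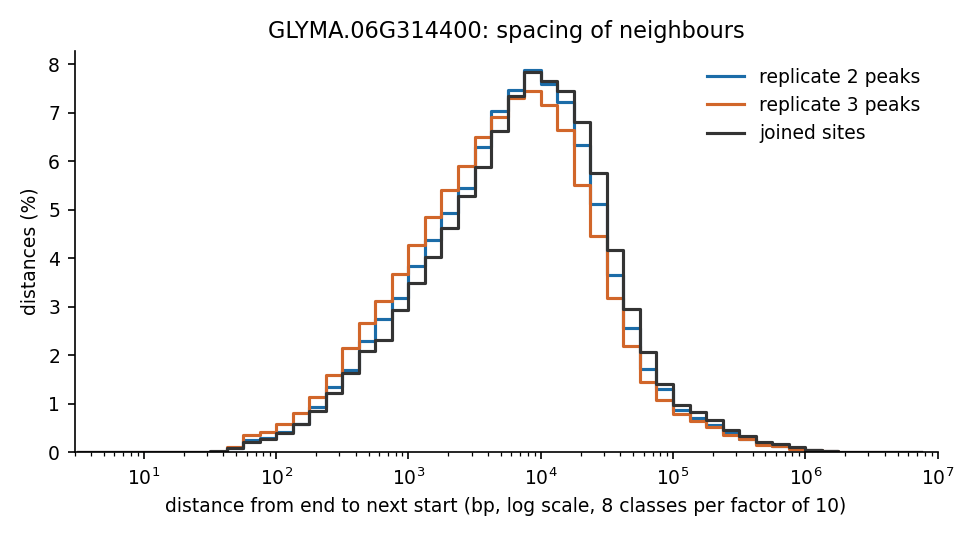
Distance from the end of a peak or site to the start of the next on the same chromosome (bp, logarithmic axis, 8 classes per factor of 10) against the share of all distances (percent), for joined sites and for the peaks of each library. The 3 curves have 1 broad maximum just below 10 kb, with medians of 7509 bp for sites, 6632 bp for replicate 2 and 5510 bp for replicate 3, and a tail of 3.89% of site distances beyond 100 kb.

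Most peaks were well under 1 kb wide. The median width was 398 bp in replicate 2 and 417 bp in replicate 3, and 50% of peaks measured 310 to 524 bp and 317 to 560 bp. Joined sites span the union of their peaks and were wider, with a median of 488 bp, a middle 50% of 394 to 634 bp and 4.52% at 1 kb or more. Exactly at the minimum width of their list stood 1066 replicate 2 peaks (2.35%) and 1220 replicate 3 peaks (2.43%). Both minima were higher than those of the GLYMA.04G093300 lists, 191 and 188 bp. What set these minima is not given in the sources used here, so median widths were not compared between factors. Comparisons of the factors that use width, below, carry this limit.

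Width and fold went together. Across peaks, Spearman's rho was 0.793 in replicate 2 and 0.782 in replicate 3, a description within each list. Median fold in replicate 2 was 3.63 for peaks up to 240 bp, 5.53 for those over 300 and up to 400 bp, 14.5 over 500 and up to 700 bp, and 22.5 over 1 kb. In replicate 3 the same classes had 3.75, 5.46, 13.4 and 21.1. The GLYMA.04G093300 lists had a rho of 0.557 and 0.543.

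The widest site, of 3019 bp on chromosome 19 from 46574410 to 46577428, joined 3 replicate 2 peaks with 1 replicate 3 peak, with folds of 29.3 and 21.2. Sites of 2717 bp on chromosome 15 (6458757 to 6461473) and chromosome 17 (795160 to 797876) each joined 2 replicate 2 peaks with 1 replicate 3 peak. Their folds were 31.7 and 27.9, and 22.4 and 24.0. The summit lay at 78.8%, 35.6% and 29.6% of the strongest replicate 2 peak of the 3 sites, and at 85.2%, 21.7% and 14.2% of the replicate 3 peak. It was thus outside the middle 50% of each replicate 3 peak, but of the replicate 2 peaks only on chromosome 19.

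Summits lay close to the middle of most peaks. The median distance from the summit to the centre was 22.5 bp in replicate 2 and 26.5 bp in replicate 3. The summit was in the middle 50% of the peak in 96.4% and 95.5% of peaks, and in the outer 10% at either end in 55 and 49 peaks. Counted from the start, 50% of summits lay between 43.9% and 55.5% of the peak in replicate 2 and between 43.1% and 56.3% in replicate 3.

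Centring was tightest in peaks of intermediate width. The median distance to the centre in replicates 2 and 3 was 25 and 27 bp in peaks up to 240 bp, and 15.5 and 17.5 bp in those over 400 and up to 500 bp. It was 103 and 102 bp in peaks over 700 and up to 1000 bp, and 225.5 and 232 bp over 1 kb, where 73.0% and 70.7% of summits were in the middle 50%.

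Within most classes of width, GLYMA.06G314400 summits were more often central than those of GLYMA.04G093300. In peaks over 300 and up to 400 bp, 99.1% and 98.8% of GLYMA.06G314400 summits (replicates 2 and 3) were in the middle 50%, against 92.4% and 90.1% of GLYMA.04G093300 summits (replicates 1 and 2). Over 500 and up to 700 bp the shares were 97.7% and 97.3% against 82.6% and 83.3%. Both libraries of one factor stood above both of the other there, but from 240 to 300 bp they overlapped, with 95.4% and 94.1% against 95.3% and 93.3%. The folds differed too, at a median of 14.5 and 13.4 against 5.58 and 4.97 in peaks over 500 and up to 700 bp. The minimum widths also differed, at 231 and 232 bp against 191 and 188 bp. A class thus lies at a different place in the width range of each factor. The part of folds and width ranges in the difference was not tested. No test is given, since an exact permutation of these 4 libraries cannot reach a two-sided p below 0.333.

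Peaks seen in 1 replicate only made up 16.2% of all GLYMA.06G314400 peaks. There were 5112 in replicate 2 (11.3% of its list) and 10349 in replicate 3 (20.6%). They were narrower than peaks in joined sites, with a median of 274 against 419 bp in replicate 2 and 290 against 458 bp in replicate 3. The means of these medians, 282 ± 11.3 bp and 438.5 ± 27.6 bp (SD, n = 2), differed by more than the SD of either. The same start and end positions decide both width and overlap, so a wider peak is more easily joined by construction. Of the peaks in 1 replicate only, 9.96% in replicate 2 and 8.28% in replicate 3 had the minimum width, against 1.39% and 0.912% of joined peaks.

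They were also weak. Their median fold was 4.01 in replicate 2 and 4.16 in replicate 3, against 7.13 and 8.24 for joined peaks of the same lists. They had a median percentile of 17.4 and 17.2 in their lists, against 55.5 and 60.2. Only 149 and 282 of them were in the upper 50% of their list by fold. The peak names give a q threshold of 0.01. Most peaks in 1 replicate only stood well below it, 89.0% and 85.7% having a q no higher than 1e-05, against 98.0% and 98.5% of joined peaks.

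The share of peaks in 1 replicate only was lower the higher the fold. In the 10 classes of fold from lowest to highest in replicate 2, it was 33.0% in the first, 23.1% in the third, 7.16% in the fifth and 0.552% in the seventh, with none in the last 2. In replicate 3 it was 63.3%, 41.2%, 13.8% and 0.738%, with 1 peak in the ninth class and none in the tenth. Within each class of fold that held both kinds, peaks in 1 replicate only were still narrower. In the lowest class their median width was 257 against 277 bp in replicate 2 and 268 against 283 bp in replicate 3, a mean difference of -17.5 bp, compared with -156.5 bp over all peaks. The gap was wider in the fifth class, at 323 against 369 bp in replicate 2 and 342 against 384 bp in replicate 3. In the sixth it was 357 against 398 bp and 369 against 418 bp.

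**Figure D4:**
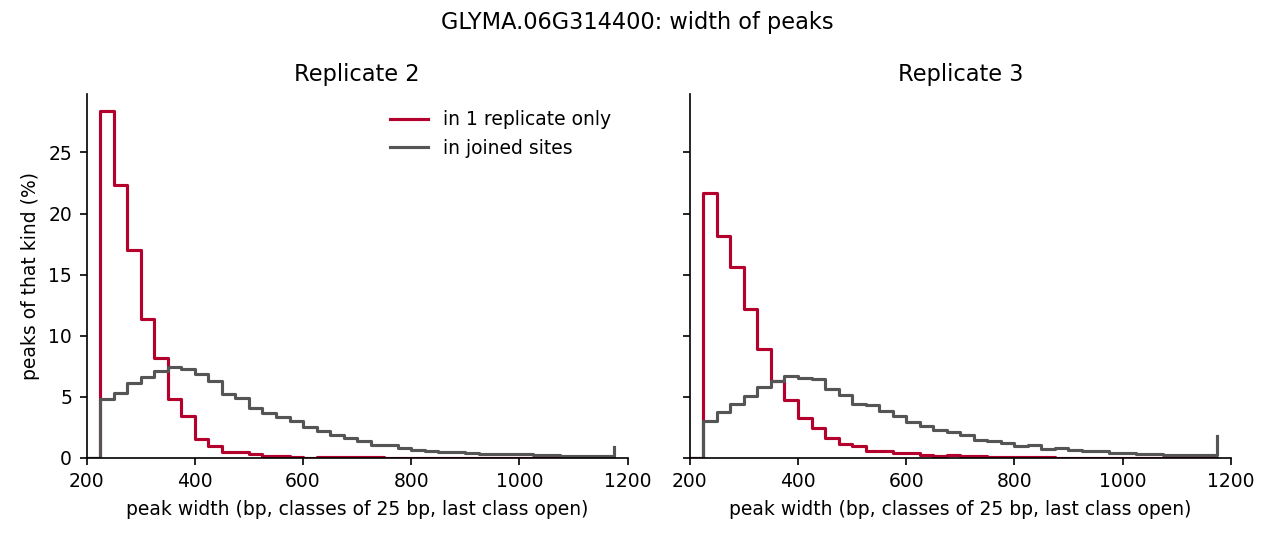
Share of peaks (percent) by peak width (bp, classes of 25 bp, all peaks of 1175 bp or more in the last, which shows as a vertical line), for peaks seen in 1 replicate only and for peaks in joined sites of replicate 2 (left) and replicate 3 (right). Peaks in 1 replicate only pile up at the narrow end, with medians of 274 and 290 bp, against 419 and 458 bp for joined peaks.

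Broad peaks in 1 replicate only were few and differed in form from broad joined peaks. Over 500 and up to 700 bp there were 40 in replicate 2 and 346 in replicate 3. Their summit lay in the middle 50% of the peak in 75% and 79.8%, against 97.8% and 97.9% of joined peaks of that width. Their median fold was 4.15 and 4.59, against 14.6 and 13.8. Among peaks over 240 and up to 300 bp, the class that held the most peaks in 1 replicate only, the shares with a central summit were 95.3% and 92.6%, against 95.5% and 95.8% of joined peaks. Over all widths the shares were 94.2% and 92.0%, against 96.7% and 96.4%, a mean difference of -3.51 points. It was -6.16 points where joining required summits within 100 bp, a rule that itself uses summit position. Among the 10000 peaks of highest fold per list, joined anew, it was 0.159 points. Nearly all unjoined peaks there had a partner below the cut, so that value does not describe peaks in 1 replicate only.

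**Figure D5:**
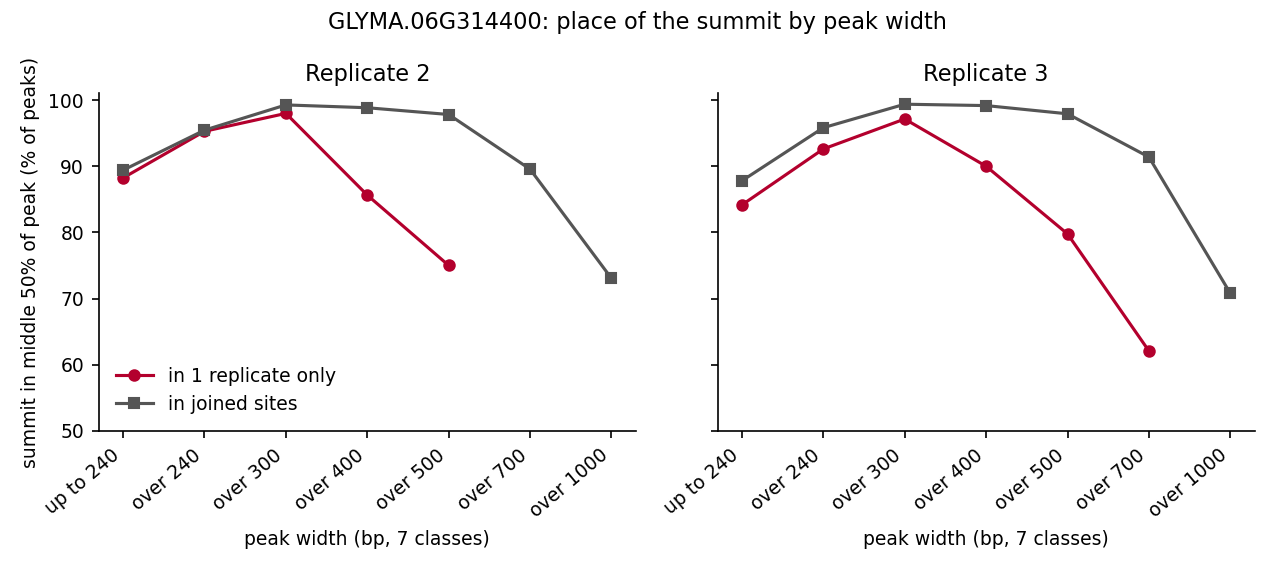
Share of peaks with the summit in the middle 50% of the peak (percent, axis from 50) by peak width (bp, 7 classes), for peaks in 1 replicate only and for peaks in joined sites of replicate 2 (left) and replicate 3 (right). Classes with fewer than 20 peaks in 1 replicate only are not drawn for them. Up to 400 bp the 2 kinds lie near each other, and over 400 bp they part, to 75% and 79.8% against 97.8% and 97.9% at 500 to 700 bp.

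Where peaks in 1 replicate only lay on the chromosomes was not the same in both libraries. In replicate 2, 25.2% of them were in the middle 50% of the chromosome, against 21.6% of joined peaks. In replicate 3 the shares were 21.0% and 21.6%, with the opposite sign. The distance to the nearest joined site was a median of 4345 bp in replicate 2, against 3142 bp from a joined peak's site to the next nearest. In replicate 3 it was 2793.5 bp against 3150 bp, again with the opposite sign. Neither difference therefore held over the pair of libraries. By chromosome, the share of peaks in 1 replicate only was 9.92% to 13.1% in replicate 2 and 18.4% to 22.3% in replicate 3. Each chromosome of replicate 3 thus exceeded each of replicate 2. Replicate 3 had more peaks on each chromosome, while the lists had near equal numbers in joined sites, 40212 and 39798. A higher share in the longer list follows by construction.

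A handful of these peaks were strong. In replicate 3 a peak of 385 bp on scaffold_1857, from 297 to 681, had a fold of 20.03, at percentile 88.7 of its list, with no replicate 2 peak over it. The next in replicate 3 lay on chromosome 2 from 47062670 to 47063074 (fold 13.3) and on chromosome 18 from 5327506 to 5327848 (fold 11.7). In replicate 2 the highest were on chromosome 15 from 29597650 to 29598197 (fold 12.7), chromosome 3 from 27898796 to 27899197 (11.9) and chromosome 9 from 18409257 to 18409673 (11). Each list had 2 peaks in 1 replicate only among its upper 25% by fold and none in its upper 10%.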

How the data were processed

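Peaks were listed per ChIP library by the authors, and the submitters' processing notes name Bowtie 0.12.7 and MACS3. Beyond a q of 0.01 in the peak names, the sources used here give no settings, build or control. By the column order of the narrowPeak format, the deposited lists give positions, summit offset, fold (a ratio), −log10 p-value, −log10 q-value and a score, which was not used. The lists hold no read counts, so depth is unknown and no interval is given. Names inside the lists number replicates 2 and 3 as 4 and 1; the sample labels were followed.

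Sites are groups of peaks linked by an overlap of 1 bp or more. Site summits are those of the member with the highest fold percentile. The members and measures were chosen with earlier results of these data known. Sites named are the highest by rank on each chromosome (8 of the 20 by values, first by rank after 4 that earlier results had named), the 3 widest, the 3 longest distances, the 3 fullest windows of 100 kb and the 3 strongest peaks per list in 1 replicate only. The sample titles number the replicates with the prefix br, which they do not explain, and do not tie them to plants, so the spread between them may be technical. Joining was tested on simulated data and against an exhaustive count on chromosome 16. The simulated peaks could only join 1 to 1, and the count checked only which peaks overlapped any peak of the other list. The grouping of several peaks into 1 site was not checked. The work used scipy 1.17.1 and numpy 2.4.6 for joining, with pandas 2.3.3 under Python 3.11.15, and matplotlib 3.10.9 for figures. Motifs and nearest genes were not analysed here, for want of a genome of the lists' build.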

Additional observations from a re-analysis of the deposited data

How the results depend on the processing

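The number, density, spacing and width of sites and the place of the summit stayed within 1.5 times, or within 1 SD of the 2 libraries, when overlap had to reach 50% of both peaks, when summits had to lie within 100 bp, and at a q of 1e-05 or lower. With the 10000 peaks of highest fold per list there were 8121 sites, 8.51 per Mb, with a median spacing of 42371 bp, a median width of 694 bp and summits 33.5 bp from the centre. Fewer and stronger peaks enter there by construction. These shortened lists were joined anew, so a peak counted as unjoined when its partner fell below the cut. In the full lists, only 2 peaks of the upper 25% of each by fold were in 1 replicate only. The share of summits in the middle 50% was 0.159 points higher in peaks unjoined after the cut than in joined peaks. That value does not describe peaks in 1 replicate only. With all peaks, the share was -3.51 points for peaks in 1 replicate only minus joined peaks. It was -6.15 and -6.16 points under the stricter overlap and summit rules, of which the summit rule itself uses summit position, and -1.70 points at the stricter q. Peaks in 1 replicate only were narrower than joined peaks under the stricter overlap and summit rules and at the stricter q. The difference was -17.5 bp in the lowest 10% by fold. Among the 10000 strongest it was -99.25 bp, but there it set peaks whose partner mostly fell below the cut against joined peaks. In the lowest 10% of each list by fold, 48.9% of peaks were in 1 replicate only, against 16.2% of all; the cause was not tested. Leaving out either replicate put 45324 to 50147 peaks in place of sites, at 47.5 to 52.6 per Mb, with a median spacing of 5510 to 6632 bp, a median width of 398 to 417 bp and summits 22.5 to 26.5 bp from the centre. Each list holds 1 summit per peak, so restricting to such peaks changed nothing. No paired analysis was possible because the 2 factors share only 1 replicate number.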

Other observations

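Summits lay slightly more often before than after the middle of the peak in all 4 lists of the series. The shares before the middle were 51.17% and 51.20% in the GLYMA.06G314400 libraries and 51.1% and 51.3% in the GLYMA.04G093300 libraries, and the shares after it were 48.1% and 48.3%, and 48.4% and 48.2%.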
